A study of Mus musculus with 8 samples.

Results

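Mouse embryos heterozygous for a low-expression allele of Ott1 (current symbol Rbm15) were compared with wild type embryos. The members were chosen by genotype label alone and are 5 of the 8 arrays of the series: wild type embryos 11 and 13 and heterozygous embryos 3, 10 and 15. Mice with the low-expression allele were mated, and whole embryos were dissected at stage E11.5, genotyped and snap-frozen in liquid nitrogen. Each array holds total RNA of 1 embryo, so replicates are separate embryos. The labels give neither the sex of an embryo nor its litter, the strain, or how the allele lowers expression. The remaining 3 arrays hold homozygous embryos 2, 7 and 16, which entered the statistical fit and are given beside the others for some genes. They are named by these label numbers, which do not pair the groups.

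Rbm15 belongs to the Spen family of RNA-binding proteins. It helps to bring the m6A methyltransferase complex to its target RNAs, takes part in splicing and in export of mRNA from the nucleus, and is needed for normal blood formation, including the megakaryocyte lineage. Its human counterpart is fused to MKL1 in a childhood megakaryoblastic leukaemia. The comparison asks whether lowered expression from 1 allele is accompanied by a change in the transcriptome of the whole embryo at mid-gestation.

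One-colour CodeLink oligonucleotide arrays with 34967 gene probes were read. In the 5 embryos compared, 206 to 270 gene probes per array were missing, 22526 to 23721 were above background, and the median background-corrected intensity lay between 48.28 and 57.63. All levels below are log2 of the quantile-normalized intensity, and all differences are heterozygous minus wild type on that scale. No probe was matched to Rbm15, so the lowered expression that the labels state could not be checked. A single gene symbol was found for 14763 gene probes. The 20204 others are unnamed here, and whether one of them measures Rbm15 is not known. The embryos also differed in Y-linked RNA, described further on: it was high in both wild type embryos and in heterozygous embryo 10, and low in heterozygous embryos 3 and 15.

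No gene passed the test between heterozygous and wild type embryos. Of 23387 probes tested with limma, 0 had an adjusted p under 0.05 (0% of all tested), and the smallest adjusted p was 0.106. An unadjusted limma p under 0.05 was found for 294 probes with a higher level in heterozygous embryos (1.26% of all tested) and for 244 with a lower one (1.04%). The 2 wild type and 3 heterozygous levels did not overlap for 2151 probes that were higher (9.2%) and 2453 that were lower (10.5%). An exact test of 2 against 3 embryos has 10 splits and cannot give a p below 0.1, so levels of single genes are described here with the interval of the fit.

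The intervals of the fit were narrow for most probes. The median difference over all tested probes was -0.00542, the median SE was 0.179, and the median half-width of the 95% interval was 0.417. For 20138 probes, 86.1% of those tested, the whole 95% interval of the fitted difference lay within 1 log2 unit of 0 (2-fold) in either direction. That count includes probes not above background in a compared group and probes with saturated spots, whose fitted difference is no bound. A difference larger than 1 log2 unit was estimated for 179 probes, of which 65 had an unadjusted p under 0.05 in limma.

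**Figure D1:**
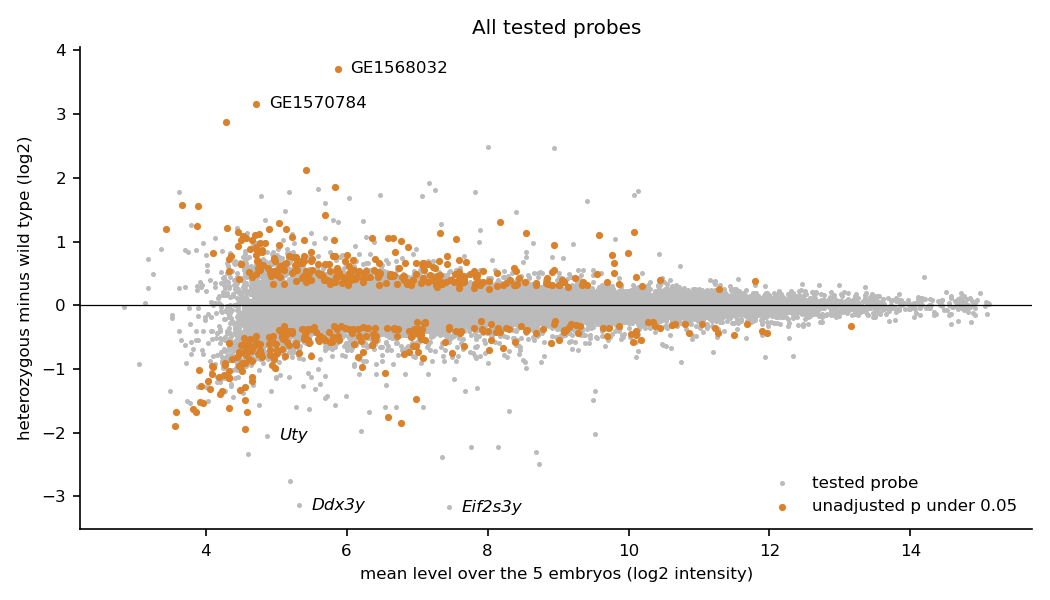
Each point is 1 of the 23387 tested probes, with its mean log2 intensity over the 5 embryos on the x axis and the log2 difference, heterozygous minus wild type, on the y axis. Orange points have an unadjusted limma p under 0.05 (538 probes). The 2 labelled unnamed probes lie furthest above 0, and the labelled Y-linked genes lie among the lowest points without reaching that p.

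Heterozygous embryos were no more alike to each other than to wild type embryos. The wild type pair correlated at 0.9903 over 22967 probes without a missing value, with a median absolute log2 difference of 0.143 and 213 probes more than 1 log2 unit apart. The 3 heterozygous pairs correlated at 0.9785 to 0.982, with median absolute differences of 0.169 to 0.203 and 527 to 798 probes over 1 log2 unit apart. The 6 pairs of a heterozygous with a wild type embryo correlated at 0.9802 to 0.9867, with 406 to 745 such probes. These correlations run across probes within a pair of arrays and are a description of array likeness.

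The largest separation between the groups belonged to 2 unnamed probes that gave almost no signal in wild type embryos. GE1568032 was at 3.70 and 3.60 in wild type embryos 11 and 13, not above background in either, and at 7.05, 7.13 and 7.91 in heterozygous embryos 3, 10 and 15. Every heterozygous level was thus far above both wild type levels, and the homozygous embryos, at 7.40, 8.03 and 8.29, were high as well. The fitted difference of 3.71 (SE 0.32, limma adjusted p = 0.106) depends on the dim wild type level and is no bound, and against the lowest detectable wild type signal the level was at least 7.99-fold higher. This probe did pass in limma under median scaling (adjusted p = 0.000588), cyclic loess (0.0364), the deposited value table (0.000305), a trended robust prior (0.0037) and array weights (0.0156). GE1570784 was at 2.17 and 3.47 in wild type embryos and at 5.73, 5.91 and 6.31 in heterozygous embryos, at least 3.07-fold higher (limma adjusted p = 0.596). It passed under median scaling (adjusted p = 0.0147) and in the deposited value table (0.00899). Both settings are scalings by 1 factor per array. By the same rule, the third unnamed probe on the higher side, GE1456538, was at 4.61 and 4.57 against 5.80, 5.67 and 5.51.

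On the lower side, among unnamed probes above background in every embryo of 1 of the compared groups, the 3 with the smallest p were dim in all 5 embryos. GE132294 was at 5.12 and 5.46 in wild type against 4.49, 4.55 and 4.40 in heterozygous embryos, at least 1.69-fold lower. GE1561919 was at 4.89 and 4.86 against 3.45, 3.67 and 2.48, at least 1.30-fold lower. GE127653 was at 4.98 and 4.96 against 4.36, 4.31 and 4.40, at least 1.39-fold lower. None of these 3 was above background in any heterozygous embryo.

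Among probes with a gene symbol and above background in every embryo of 1 of the compared groups, the 12 with the smallest p on the higher side had adjusted p of 0.855 or 1 in limma, so the following levels are descriptions of the nearest candidates. Gm10413, an uncharacterised gene on chromosome 14, was at 4.80 and 4.66 in wild type and at 6.35, 6.54 and 6.86 in heterozygous embryos, a difference of 1.85 (95% interval 1.23 to 2.47, limma adjusted p = 0.855). Its homozygous levels, 6.25, 6.30 and 5.49, also lay above both wild type embryos. 3830406C13Rik, also on chromosome 14, was at 8.89 and 8.93 against 9.89, 9.71 and 10.46. The brightest gene of the 12 was Klhdc4, which encodes a protein with kelch repeats, at 9.41 and 9.57 against 10.14, 10.22 and 10.58 (difference 0.82). A second Klhdc4 probe differed by only 0.21 (SE 0.18), so its 2 probes disagreed in size.

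Several of the 12 are transcription or signalling genes. Nr2f2, a nuclear receptor needed for venous identity, was at 6.86 and 6.93 against 7.65, 7.29 and 7.53 with this probe, a difference of 0.59. A much brighter second Nr2f2 probe read 11.49 and 11.76 against 11.83, 11.53 and 11.62, so the groups overlapped there. Bend6, a BEN-domain gene, was at 6.84 and 6.44 against 8.19, 7.65 and 7.48. Onecut1, a liver and pancreas transcription factor, was above background in all 3 heterozygous embryos and in neither wild type embryo, at least 1.55-fold higher. The immediate-early gene Arc was also above background only in the heterozygous embryos among these 5, at 4.60 and 4.29 against 5.14, 5.02 and 5.07, at least 1.55-fold higher. Adgrb1, an adhesion receptor that binds phosphatidylserine on dying cells, was at 3.82 and 4.36 against 5.22, 5.24 and 5.18, at least 1.75-fold higher.

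The others were 2310022B05Rik, Tcte3 (a dynein light chain), H2-Bl and Slc16a4. 2310022B05Rik had levels of 5.70 and 5.76 in wild type, 6.69, 6.66 and 6.98 in heterozygous, and 7.38, 7.59 and 8.23 in homozygous embryos. The 3 genotypes did not overlap for this gene, with the heterozygous levels in between. Among the genes named for the smallest p in either direction, this also held for Nr2f2 (the dimmer probe), Onecut1, Cldn11, Prr15l and Ppp3r2. The share over all probes is not given here. H2-Bl, of the MHC class I family whose members are alike in sequence and may share probe signal, was at 5.0 and 4.69 against 7.08, 5.79 and 5.92. Embryo 3 was the highest of these by more than 1 log2 unit. Slc16a4 encodes a member of the monocarboxylate transporter family, and on chromosome 3 it is the gene next to Rbm15. It was at 5.81 and 5.73 in wild type and at 6.33, 6.25 and 6.41 in heterozygous embryos, a difference of 0.56 (95% interval 0.23 to 0.88, limma adjusted p = 1).

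The 12 named genes with the smallest p on the lower side were mostly dim. Vmn1r233, a vomeronasal receptor gene, was at 4.95 and 5.09 in wild type and at 3.97, 3.87 and 3.82 in heterozygous embryos, where it was not above background, at least 1.44-fold lower (limma adjusted p = 0.855). Kcnj8, the pore subunit of a potassium channel of vascular smooth muscle, was at 5.66 and 5.23 against 4.17, 3.51 and 4.21, at least 1.94-fold lower. Riiad1, Proser2 and Ppm1b were likewise above background in both wild type and in no heterozygous embryo, at least 1.70-fold, 1.53-fold and 1.57-fold lower. G6pc, the glucose-6-phosphatase that releases glucose in liver, was at 5.55 and 6.01 against 4.76, 5.09 and 5.25, a difference of -0.75. The calcineurin subunit gene Ppp3r2 differed by -0.61 and the sodium-glucose transporter family gene Slc5a4a by -0.50.

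The other genes on the lower side were Cldn11, Prr15l, Dkk3 and Asah1. Cldn11, a tight junction claudin, was at 7.35 and 7.25 in wild type and at 6.87, 6.77 and 6.90 in heterozygous embryos (difference -0.45, 95% interval -0.72 to -0.19). Prr15l was at 7.39 and 7.50 against 6.88, 7.02 and 6.79. Dkk3, a secreted protein of the Dickkopf family, was at 7.14 and 7.28 against 6.75, 6.83 and 6.54, while its homozygous levels of 7.26, 7.22 and 7.23 lay within the wild type range. Asah1, the acid ceramidase of lysosomes, was at 7.33 and 7.16 against 6.90, 6.81 and 6.76. Its homozygous levels, 7.25, 7.23 and 7.27, also lay between both wild type levels. For all 24 named genes the heterozygous and wild type levels did not overlap, which follows in part from choosing them by the smallest p.

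**Figure D2:**
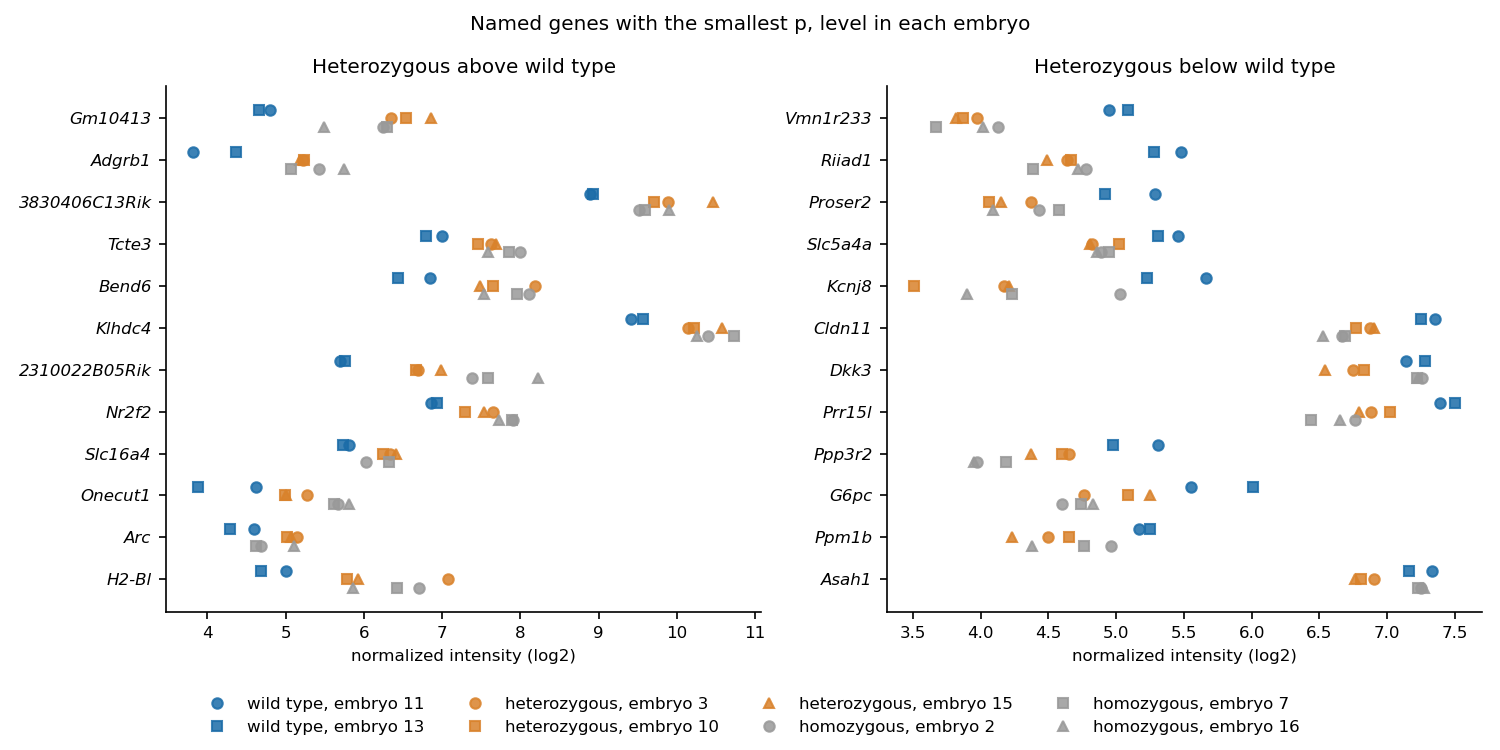
Log2 normalized intensity (x axis) of the 12 named genes with the smallest limma p in each direction, 1 point per embryo, wild type blue, heterozygous orange and homozygous grey, the symbol shape marking the embryo. Wild type and heterozygous points do not overlap in any row by choice of the genes, and Dkk3 and Asah1 are rows where homozygous points lie with the wild type ones.

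Genes were also grouped in 38 lists of pathways, tissues and cell types, which together hold 845 measured genes. Of these genes, 5 had a higher and 14 a lower level at an unadjusted p under 0.05 in limma, 2.25% of them against 2.3% of all tested probes. Of tested probes with a symbol, 1.82% reached that p, 70 higher and 141 lower. Shares of all probes given below include the unnamed ones, and no share without overlap is given for probes with a symbol alone. No gene of any list passed at an adjusted p under 0.05, and the adjusted p was 1 for every list gene. With only 2.3% of all probes at that unadjusted p, a short list can hold none, so counts of 0 are not read as results. The 5 higher ones were Arc, Slc16a4, Atf3, Kitl and Nkx6-1. The 14 lower ones were Fcgr1, Rhd, Slc4a1, Hemgn, Myh8, Tnnt1, Apoa2, Prl8a2, Lama2, Dkk2, Cdkn1c, Nkx2-2, Rps7 and Rpl14. The mean deviation of a list in an embryo, used below, averages, over its genes, how far the log2 level lies from the gene's own 5-embryo mean.

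No measured gene of the machinery in which Rbm15 acts passed the test, and the median difference of the m6A genes was 0.0395. The paralog Rbm15b, with the same role in m6A deposition, was at 10.52 and 10.58 in wild type and at 10.56, 10.67 and 10.65 in heterozygous embryos. The difference was 0.08 (SE 0.11, 95% interval -0.17 to 0.33, limma adjusted p = 1), so a change of more than 0.33 log2 units lies outside the interval. Of 12 measured m6A genes, 0 reached an unadjusted p under 0.05 in limma (against 2.3% of all tested probes). The methyltransferase Mettl3 was at 9.86 and 9.71 against 9.85, 9.94 and 9.46, and its partner Mettl14 at 9.39 and 9.18 against 9.34, 9.34 and 9.22. Zc3h13, which links Rbm15 to the complex, was at 9.01 and 8.98 against 8.74, 8.76 and 8.86, a difference of -0.21 (95% interval -0.47 to 0.05). The demethylase Alkbh5 differed by 0.20 (95% interval -0.18 to 0.58) with overlapping groups.

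Export and splicing genes lay as close to 0. None of 23 export and Spen genes and none of 36 splicing factors reached an unadjusted p under 0.05 in limma (against 2.3% of all tested probes). The median differences were -0.00254 and -0.0261. Spen, the founding member of the family, was at 9.73 and 10.47 in wild type embryos and at 10.32, 10.06 and 10.57 in heterozygous ones, so its spread within wild type was wide. The export adaptor Alyref was at 13.78 and 13.70 against 13.72, 13.89 and 13.93. The splicing factor Srsf3, which also promotes export, differed by -0.12 (95% interval -0.42 to 0.18). Ddx19b, a helicase at the nuclear pore, was above background only in the heterozygous embryos of the 5, at 4.70 and 4.11 against 4.87, 5.07 and 5.16. Its group mean was at least 1.46-fold higher, but the 95% interval of the fitted difference, -0.34 to 1.61, included 0. In the splicing list, Snrpb differed by 0.17 (95% interval -0.11 to 0.45) and Sf3a1 by -0.38 (95% interval -0.97 to 0.20).

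Around Rbm15 on chromosome 3, most genes were level and Slc16a4, described above, had the smallest p. Of the 15 protein-coding genes on each side, 16 were measured, 1 of them at an unadjusted p under 0.05 in limma (against 2.3% of all tested probes), and their median difference was -0.00694. Kcnc4, the nearest gene on the other side, was at 7.13 and 7.08 in wild type and at 7.02, 7.27 and 6.92 in heterozygous embryos. The potassium channel gene Kcna2 differed by -0.19 (95% interval -0.64 to 0.26). Csf1, a growth factor for macrophages, was at 5.62 and 5.29 against 5.53, 5.89 and 5.48.

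Blood genes were of interest because Rbm15 acts in blood formation. As a list, progenitor genes were nearly level: their mean deviation ranged over only 0.049 log2 units across the 5 embryos. Of 18 measured, 0 reached an unadjusted p under 0.05 in limma (against 2.3% of all tested probes). Kit, the stem cell factor receptor, was at 7.71 and 7.93 against 7.85, 7.88 and 7.90, and Runx1 at 6.31 and 6.55 against 6.53, 6.58 and 6.68. Tal1, a master transcription factor of blood, was at 11.26 and 10.72 against 11.34, 11.27 and 11.44 (difference 0.37, 95% interval -0.04 to 0.77). Gata2 differed by -0.17 (95% interval -0.51 to 0.17).

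Red cell genes had somewhat lower levels in heterozygous embryos, a pattern that did not pass for any gene. Of 29 measured, 10 lay below both wild type embryos in all 3 heterozygous embryos (34.5% against 10.5% of all probes) and 0 lay above, while the median difference was -0.0916. That median lay between -0.153 and -0.0851 when any of the 5 embryos was left out. It was -0.0632 without embryos 3 and 15. The mean deviation of the list was 0.0401 and 0.105 in wild type embryos 11 and 13. It was -0.0821, 0.0188 and -0.0811 in heterozygous embryos 3, 10 and 15, so embryo 10 lay close to wild type embryo 11. Rhd, a Rhesus blood group protein, was at 9.20 and 9.33 in wild type and at 8.50, 8.42 and 9.06 in heterozygous embryos, a difference of -0.60 (95% interval -1.07 to -0.13). The anion exchanger Slc4a1 was at 8.61 and 8.35 against 8.20, 8.19 and 7.98 (difference -0.35), and the nuclear factor Hemgn at 8.05 and 8.45 against 7.91, 7.81 and 7.83 (difference -0.40). These 3 are the only ones of the list at an unadjusted p under 0.05 in limma.

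The haem and globin genes named here differed by less or overlapped between the groups. The embryonic globin Hba-x was at 14.84 and 14.80 against 14.59, 14.66 and 14.47, and the haem synthesis enzyme Alas2 at 11.34 and 11.47 against 11.27, 11.11 and 11.28. The embryonic globin Hbb-y, at 15.20 and 15.12 against 15.16, 15.20 and 14.74, overlapped between the groups. So did Hba-a1, at 15.01 and 15.20 against 15.20, 15.01 and 15.16. Globin genes are alike in sequence, so their probes may share signal. Their levels lay at the top of the scale, and saturated spots, 25 to 48 per array, were kept. Overlap there does not bound a difference. The red cell transcription factors Gata1 and Klf1 overlapped too, Klf1 at 8.26 and 8.65 against 8.45, 8.95 and 8.20. Slc25a37, the iron carrier of mitochondria, differed by 0.28 (95% interval -0.27 to 0.83). In bulk RNA of a whole embryo, fewer cells of a type and less RNA per cell cannot be told apart.

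Megakaryocyte genes varied more within the heterozygous group than between groups. Of 13 measured, 0 reached an unadjusted p under 0.05 in limma (against 2.3% of all tested probes). The platelet chemokine gene Ppbp was at 9.23 and 9.78 in wild type and at 8.96, 7.86 and 9.99 in heterozygous embryos 3, 10 and 15, so the heterozygous levels enclosed both wild type ones. Pf4, another platelet chemokine, was at 9.88 and 10.22 against 9.90, 9.21 and 10.55, again lowest in embryo 10 and highest in embryo 15. The von Willebrand receptor subunit Gp9 differed by -0.42 (95% interval -1.17 to 0.33) and the cofactor Zfpm1 by 0.24 (95% interval -0.29 to 0.77).

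As a list, macrophage genes were far below wild type in heterozygous embryo 10 and not in heterozygous embryos 3 and 15. The mean deviation of 20 measured macrophage genes was 0.212 and 0.323 in wild type embryos 11 and 13, and 0.134, -1.11 and 0.439 in heterozygous embryos 3, 10 and 15. Embryo 15 was thus the highest of the 5 and embryo 10 by far the lowest. The median difference of the list was -0.406, and without embryo 10 it was 0.0846. Without embryo 15 it was -0.871, without embryos 3 and 15 it was -1.26, and with a Y-linked covariate in the fit it was -1.06. The complement subunit C1qb was at 9.11 and 9.02 in wild type and at 9.13, 6.01 and 9.40 in heterozygous embryos, and the lysosomal protease Ctss at 7.36 and 7.60 against 7.42, 3.66 and 8.13. The mannose receptor Mrc1, at 6.54 and 6.97 against 6.58, 4.26 and 6.80, and Aif1, at 6.68 and 6.67 against 6.59, 3.91 and 7.12, showed the same order.

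Not every gene of the macrophage list was low in embryo 10. The transcription factor Spi1 (8.29 and 8.34 against 8.32, 8.30 and 8.36) and the haem oxygenase Hmox1 (8.93 and 8.92 against 9.07, 8.81 and 9.01) were at like levels in all 5 embryos. Stab1, a scavenger receptor also made by endothelium, differed by 0.11 (95% interval -0.31 to 0.53). Fcgr1, a receptor for immunoglobulin, was the only member at an unadjusted p under 0.05 in limma. It is 1 of 4 of the 20 genes that lay below both wild type embryos in all 3 heterozygous ones (20% against 10.5% of all probes), at 5.96 and 6.01 against 5.38, 4.68 and 5.48. Its difference was -0.80 (95% interval -1.34 to -0.27, limma adjusted p = 1), and its homozygous levels were 3.75, 3.83 and 3.77. Homozygous levels of C1qb, 7.35 to 8.41, and of Ctss, 5 to 5.68, were also below wild type. Those of Stab1 were not, at 9.45, 9.66 and 9.85. The array of embryo 10 had the lowest median intensity of the 5, 48.28, and the fewest probes above background, 22526. The array of embryo 15 had a median of 48.66 and 22973 probes above background. Whether array intensity bears on the macrophage levels was not tested.

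Embryo 10 was also the lowest for neuronal genes. The mean deviation of 29 measured neuron genes was 0.0946 and 0.289 in wild type embryos and 0.0578, -0.651 and 0.209 in heterozygous embryos 3, 10 and 15. The median difference was -0.283, and without embryo 10 it was -0.0807. None reached an unadjusted p under 0.05 in limma (against 2.3% of all tested probes). Genes of axon structure showed it clearly: Stmn2 was at 10.81 and 11.02 in wild type and at 10.58, 9.37 and 10.87 in heterozygous embryos, and the intermediate filament gene Prph at 7.36 and 7.85 against 7.22, 5.77 and 7.68. Dcx, of migrating neurons, was at 9.91 and 10.19 against 9.78, 8.39 and 10.05. The neurogenic factor Neurod1, at 8.88 and 8.90 against 8.83, 8.77 and 9.24, was at a like level in embryo 10. Neurog2, which starts neuron formation, differed by -0.27 (95% interval -0.57 to 0.02), and Lhx1 by 0.08 (95% interval -0.48 to 0.63).

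**Figure D3:**
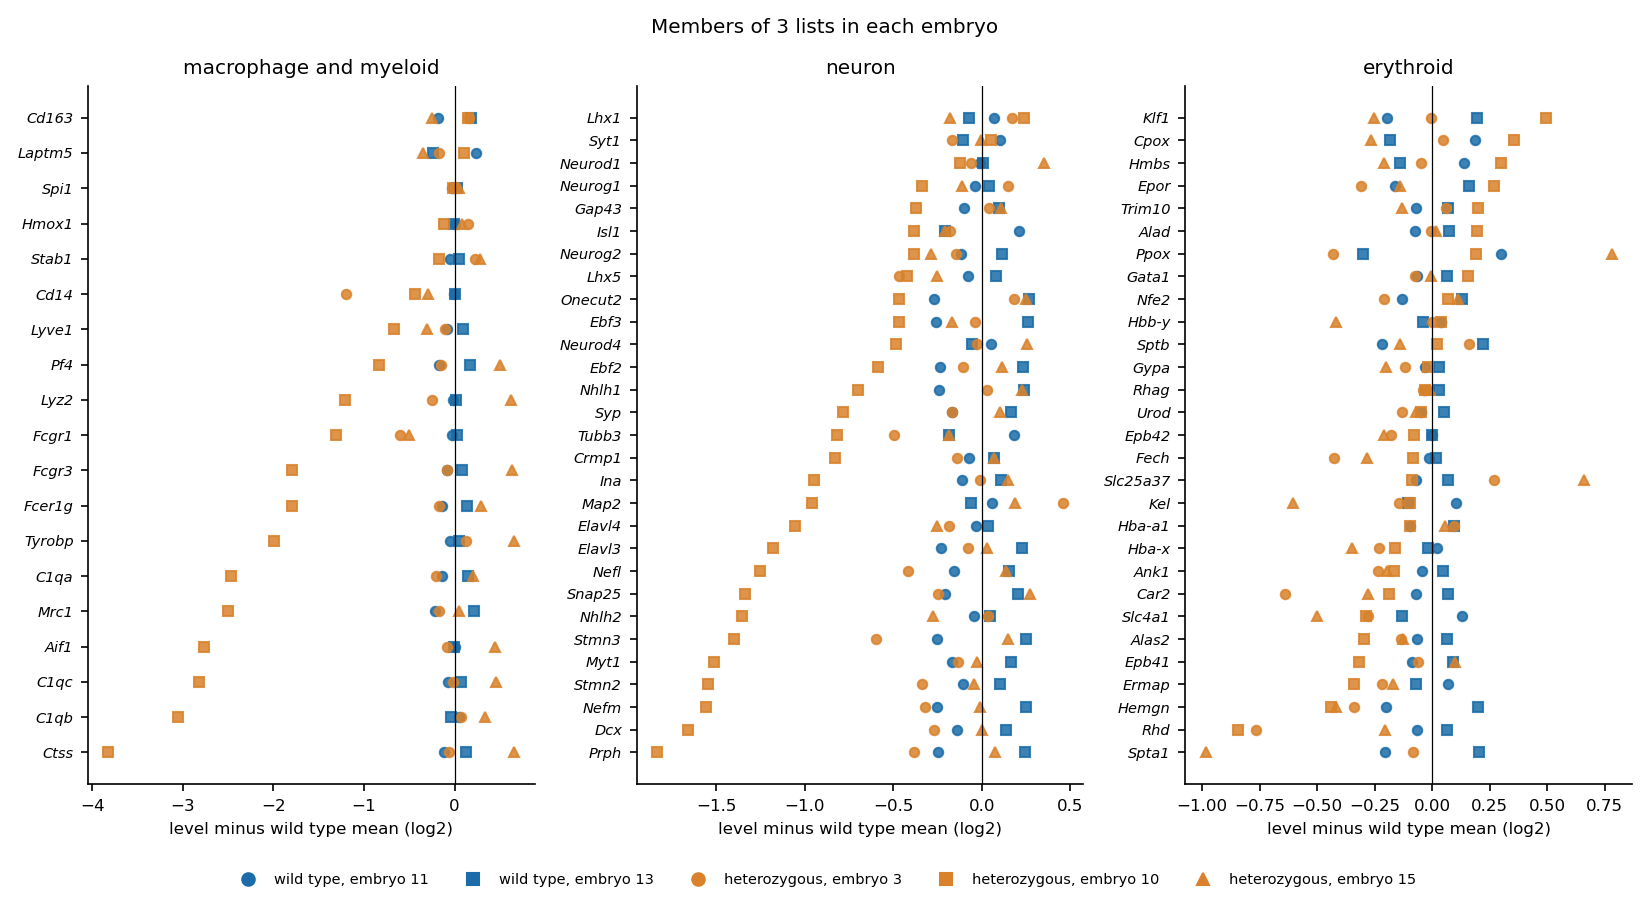
Level of measured genes of the macrophage, neuron and erythroid lists minus the wild type mean, in log2 units on the x axis (each panel has its own range), 1 point per wild type (blue) or heterozygous (orange) embryo. Orange squares, embryo 10, trail far to the left in the macrophage and neuron panels and not in the erythroid panel. Genes are ordered by embryo 10, so its own slope down each panel follows from the ordering.

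For neural progenitor genes embryo 10 was again the lowest, by little: their mean deviation there was -0.031, within a range of 0.0851 over the 5 embryos. In this list of 30, Nkx6-1 and Nkx2-2, which pattern the ventral neural tube, had opposite signs. Nkx6-1 was at 9.46 and 9.50 in wild type and at 9.97, 9.99 and 9.57 in heterozygous embryos (difference 0.36), and Nkx2-2 at 5.71 and 5.67 against 5.49, 5.35 and 4.82 (difference -0.47). Of 22 neural crest genes and 14 lens and eye genes, 0 reached an unadjusted p under 0.05 in limma (against 2.3% of all tested probes). Among the crest genes, the pigment cell gene Pmel was at 7.73 and 7.77 against 7.22, 6.68 and 7.71. The lens list had a median difference of -0.2, which was 0.00292 without wild type embryo 13 and -0.393 without wild type embryo 11. Its member Crybb2, a lens crystallin, differed by 0.09 (95% interval -0.23 to 0.42).

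Skeletal muscle genes had lower mean levels in all 3 heterozygous embryos than in wild type, with embryo 10 again the lowest and no gene past the adjusted threshold. Their mean deviation was 0.124 and 0.244 in wild type embryos and -0.0637, -0.362 and 0.0576 in heterozygous embryos, and of 21 measured genes 5 lay below without overlap (23.8% against 10.5% of all probes). The median difference was -0.258, and -0.146 without embryo 10. The fetal myosin Myh8 was at 6.46 and 6.99 against 5.96, 6.07 and 6.29 (difference -0.62, 95% interval -1.04 to -0.19), and the troponin Tnnt1 at 7.58 and 7.91 against 7.15, 6.94 and 7.42 (difference -0.57). Myod1, which commits cells to muscle, was at 6.59 and 7.46 against 6.35, 5.39 and 6.74. Pax3, of muscle precursors, was at 9.37 and 9.31 against 9.35, 9.33 and 9.33, and Chrng differed by 0.16 (95% interval -1.0 to 1.32).

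Heart genes differed among heterozygous embryos in another order. The mean deviation of 24 cardiomyocyte genes was 0.131 and -0.0605 in wild type embryos, and -0.26, 0.222 and -0.0323 in heterozygous embryos 3, 10 and 15, so embryo 10 was the highest here. The atrial light chain Myl7 was at 13.13 and 12.99 against 12.76, 13.55 and 13.18. Myh7, a ventricular myosin, was at 5.96 and 5.43 against 4.63, 6.12 and 4.75, and Mef2c differed by 0.09 (95% interval -0.17 to 0.35). Of 26 endothelial genes, 0 reached an unadjusted p under 0.05 in limma (against 2.3% of all tested probes). There, Apln differed by 0.33 (95% interval -0.13 to 0.80) and Pecam1 by -0.13 (95% interval -0.38 to 0.13).

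Liver genes lay lower in heterozygous embryos 3 and 10 and nearer to wild type in embryo 15. The mean deviation of 27 genes was 0.113 and 0.186 in wild type and -0.152, -0.242 and 0.0868 in heterozygous embryos. The median difference was -0.241, and it lay between -0.335 and -0.165 when any of the 5 embryos was left out. Albumin (Alb) was at 8.30 and 8.96 in wild type and at 7.61, 6.23 and 8.14 in heterozygous embryos, the lowest in embryo 10. The apolipoprotein Apoa2 was at 9.29 and 9.41 against 8.72, 8.46 and 9.22 (difference -0.55, 95% interval -1.04 to -0.05). It was the only gene of the liver list at an unadjusted p under 0.05 in limma. The alpha-fetoprotein gene Afp, at 11.10 and 11.33 against 10.69, 10.03 and 11.34, overlapped between the groups, and the keratin Krt8 was the only gene of the liver list above both wild type embryos in all 3 heterozygous ones, at 8.90 and 8.87 against 9.01, 9.89 and 8.97.

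Genes of extraembryonic tissue, which can be carried along at dissection, were also measured. The mean deviation of 13 yolk sac genes was 0.0449 and -0.0831 in wild type and -0.124, 0.249 and -0.0875 in heterozygous embryos 3, 10 and 15. Cldn6 differed by 0.34 (95% interval -0.13 to 0.81), with 7.77 and 7.34 against 7.77, 8.23 and 7.70. Cited1 differed by -0.12 (95% interval -0.42 to 0.18). Of 16 measured trophoblast and decidua genes, Prl8a2, a prolactin family gene of the decidua, was the only one at an unadjusted p under 0.05 in limma. It was at 7.75 and 7.55 in wild type and at 4.30, 6.55 and 6.81 in heterozygous embryos, a difference of -1.76 with a wide 95% interval of -3.43 to -0.09. The prolactin family gene Prl7a1 was instead high in embryo 3, at 8.09 against 5.39 to 6.27 in the other 4. The part that carried-along tissue plays in the comparison was not tested.

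Several growth and stress lists were highest in embryo 10. Of 29 genes of Myc and ribosome biogenesis, 27 had a positive difference, with a median of 0.149. Their mean deviation was -0.0114 and -0.175 in wild type and 0.0335, 0.276 and -0.124 in heterozygous embryos 3, 10 and 15. Without embryo 10 the median was 0.0656, without wild type embryo 13 it was 0.0755, and without embryo 15 it was 0.257. The nucleolar methyltransferase Nop2 was at 10.60 and 10.38 against 10.66, 10.87 and 10.61 (difference 0.22, 95% interval -0.08 to 0.53), and the nucleolar protein Ncl differed by -0.04 (95% interval -0.34 to 0.26). The hypoxia and glycolysis, heat shock, integrated stress response and DNA replication lists were likewise highest in embryo 10, with mean deviations of 0.187, 0.144, 0.118 and 0.116.

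No single gene of these lists passed the test. The lactate exporter Slc16a3 was at 9.10 and 8.82 in wild type, 9.39, 9.85 and 9.31 in heterozygous and 10.01, 10.56 and 11.08 in homozygous embryos (heterozygous difference 0.56, 95% interval -0.16 to 1.28). Tpi1 differed by -0.18 (95% interval -0.62 to 0.26). The stress-induced factor Atf3 was at 5.73 and 5.15 against 5.98, 6.15 and 5.77 (difference 0.53, 95% interval 0.04 to 1.02), and Cebpb differed by -0.39 (95% interval -0.80 to 0.03). Among the chaperones, Hspd1 differed by 0.16 and Hspa4 by -0.13, and among mitotic cyclins Ccna2 by 0.22 and Ccnb2 by -0.14, all with intervals that include 0. The apoptosis gene Bax differed by -0.22 (95% interval -0.48 to 0.04) and Perp by 0.15. Rhob, an immediate-early GTPase, differed by -0.33 (95% interval -0.76 to 0.10). The interferon-induced Ifit2 ranged within wild type from 5.56 to 3.62. Irf7 was at 4.82 and 4.89 against 4.20, 3.17 and 4.23, its group mean at least 1.28-fold lower. The 95% interval of its fitted difference, -2.43 to 0.46, included 0.

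Ribosomal and metabolic genes were measured at high signal, where the intervals are narrow. Of 50 ribosomal protein genes, Rps7 and Rpl14 were lower at an unadjusted p under 0.05 in limma and 0 were higher. Rps7 was at 10.69 and 10.63 in wild type and at 10.25, 10.48 and 10.20 in heterozygous embryos (difference -0.35, 95% interval -0.64 to -0.07). Rpl14 was at 13.30 and 13.40 against 13.07, 13.13 and 12.85 (difference -0.33). Rps16 differed by 0.20 in the other direction (95% interval -0.08 to 0.49). In oxidative phosphorylation (43 genes) Cycs differed by 0.16 and Ndufb3 by -0.28, and in cholesterol synthesis (21 genes) Dhcr7 by 0.14 and Hmgcs1 by -0.27. None of these 4 had an interval that excludes 0.

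Patterning, matrix and growth control genes completed the lists. Lama2, a laminin chain of muscle basement membrane, was at 5.86 and 6.18 in wild type and at 5.58, 5.29 and 5.57 in heterozygous embryos (difference -0.54, 95% interval -0.88 to -0.19), and Col1a1 differed by 0.20. The Wnt inhibitor Dkk2 was at 6.59 and 6.88 against 6.16, 6.22 and 5.94 (difference -0.63, 95% interval -1.06 to -0.20), while Wnt3a was at 8.42 and 8.33 against 8.58, 9.12 and 8.47. The imprinted cell cycle inhibitor Cdkn1c was at 11.33 and 11.54 against 11.22, 10.90 and 11.12 (difference -0.36), and the imprinted Peg10 differed by 0.26. Of 31 Hox genes, 0 reached an unadjusted p under 0.05 in limma (against 2.3% of all tested probes). Hoxb3 differed by 0.20 and Hoxa10 by -0.51, the latter with levels of 8.57 and 8.80 against 8.58, 8.04 and 7.91. In limb and cartilage Fgf8 differed by 0.27. Matn1, not above background in any heterozygous embryo, was at 4.92 and 4.85 against 3.95, 4.85 and 3.29. Its group mean was at least 1.23-fold lower, but the 95% interval of the fitted difference, -2.0 to 0.29, included 0. In kidney and gonad Fst differed by 0.32 and Osr1 by -0.35 (95% interval -0.70 to 0.01).

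Of 17 measured germ cell and pluripotency genes, 5 lay above both wild type embryos in all 3 heterozygous ones (29.4% against 9.2% of all probes). The list as a whole overlapped between the groups, with mean deviations of -0.0369 and -0.111 in wild type and 0.0597, 0.205 and -0.116 in heterozygous embryos 3, 10 and 15, so embryo 15 was the lowest of the 5. Kitl, the ligand that primordial germ cells and blood precursors need, was at 9.06 and 9.22 in wild type and at 9.63, 9.50 and 9.39 in heterozygous embryos (difference 0.37, 95% interval 0.04 to 0.69). It was the only gene of the list at an unadjusted p under 0.05 in limma. The pluripotency factor Sox2 was at 8.98 and 8.92 against 9.11, 9.38 and 8.98. Lin28a, which blocks let-7 maturation, was at 10.27 and 9.64 against 10.72, 11.48 and 10.06, highest in embryo 10. Tfap2c went the other way, at 8.51 and 8.35 against 8.42, 7.83 and 7.82. The median difference of the list was 0.081, which was 0.0491 without embryo 10 and 0.143 without wild type embryo 11.

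**Figure D4:**
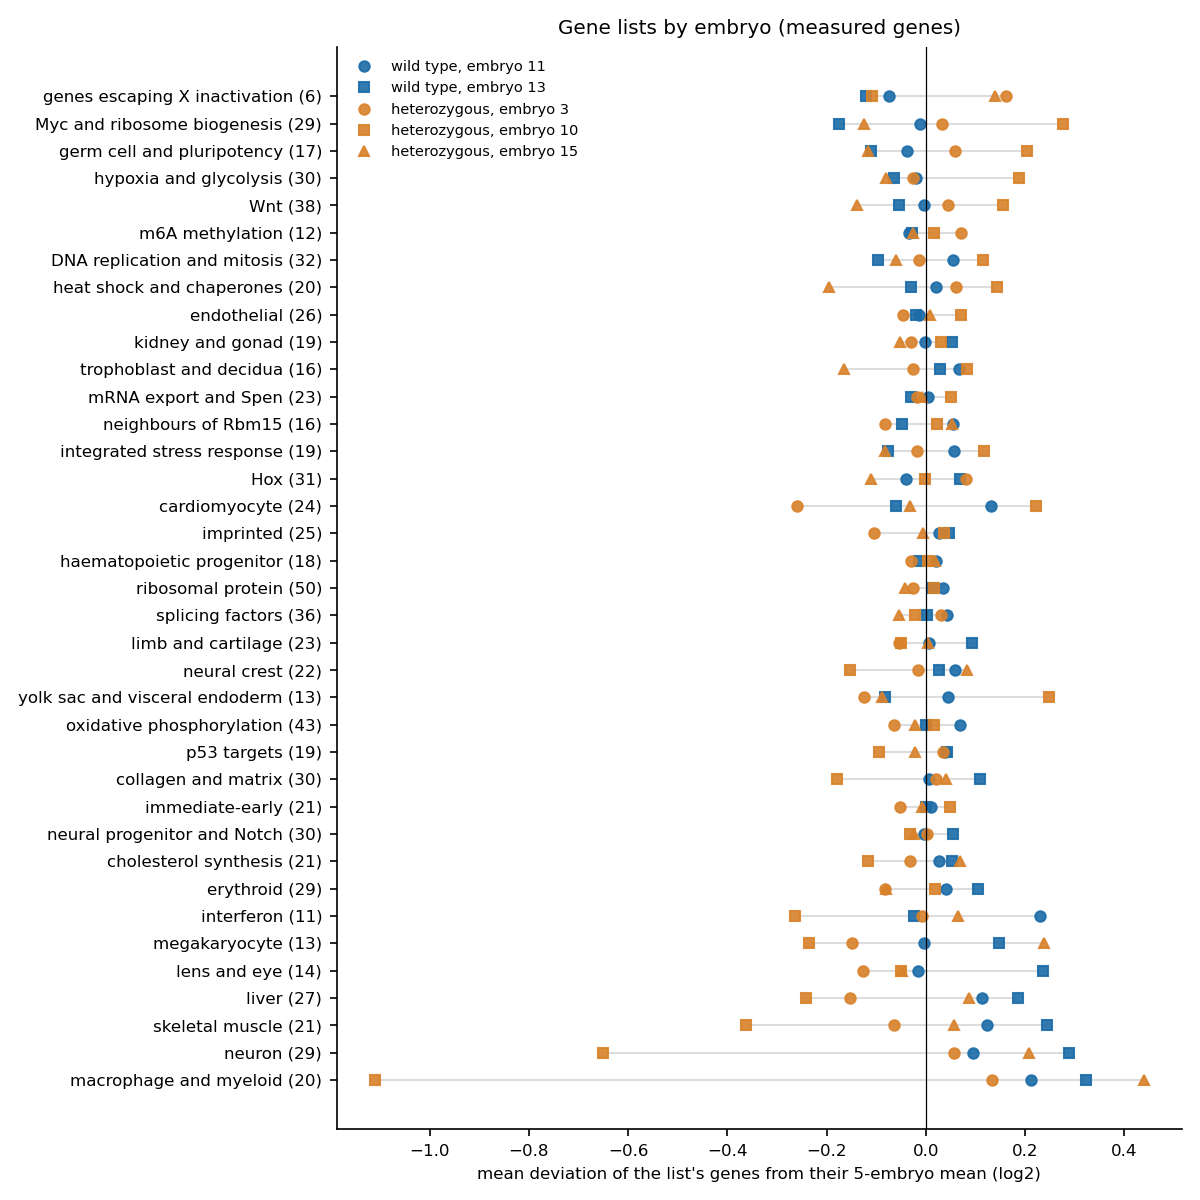
Each row is 1 of 37 gene lists (the Y-linked list is left out), with its number of measured genes in brackets, and the x axis gives the mean deviation of the list's genes from their 5-embryo means in log2 units, 1 point per embryo. Embryo 10, the orange square, lies far below the others for macrophage (-1.11) and neuron genes (-0.651), and embryos of both genotypes are mixed in most rows.

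Embryo 10 had the highest mean deviation in 14 of the 38 lists and the lowest in 11. Its genotype mates 3 and 15 were the highest in 3 and 4 lists and the lowest in 11 each. Wild type embryos 11 and 13 were the highest in 6 and 11 lists and the lowest in 1 and 4. The lists' heterozygous and wild type values did not overlap in 7 of 38 cases, 1 with heterozygous embryos higher and 6 with them lower. Single probes did not overlap at 9.2% higher and 10.5% lower, so nothing is read from this count. The 1 higher list was m6A methylation, where the whole spread over 5 embryos was 0.104 log2 units. The 6 lower ones were the erythroid, p53 target, skeletal muscle, lens and eye, limb and cartilage, and liver lists.

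The most negative differences of all tested probes belonged to the Y-linked genes Eif2s3y (-3.17, limma adjusted p = 1) and Ddx3y (-3.14, adjusted p = 1), and their levels divided the heterozygous group. Eif2s3y, a Y-linked translation factor subunit, was at 9.42 and 9.28 in wild type embryos and at 4.39, 9.69 and 4.48 in heterozygous embryos 3, 10 and 15. Ddx3y was at 7.44 and 6.99 against 2.17, 7.52 and 2.54, and Uty at 6.14 and 6.06 against 3.60, 6.38 and 2.17. Kdm5d was at 7.91 and 7.57 against 6.45, 7.62 and 6.50. Embryo 10 was thus above both wild type levels of Eif2s3y, Ddx3y and Uty, and embryos 3 and 15 were far below. The probes of Usp9y (6.56 and 6.73 against 6.40, 6.72 and 6.52) and Zfy1 (5.42 and 4.94 against 5.41, 5.02 and 5.24) did not divide the embryos so. The mean of all 6 Y-linked probes was 7.15 and 6.93 in wild type, and 4.74, 7.16 and 4.58 in heterozygous embryos 3, 10 and 15.

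Some X-linked genes ran the opposite way. Eif2s3x, which escapes X inactivation, was at 11.55 and 11.57 in wild type and at 12.31, 11.63 and 11.96 in heterozygous embryos, and Kdm6a at 8.77 and 8.81 against 9.46, 8.79 and 9.16. For both genes embryo 10 lay close to wild type and embryos 3 and 15 above it. Bgn, also on the X chromosome, differed by -0.24 (95% interval -0.72 to 0.24). No Xist probe was measured. Among these 5, both embryos with low Y-linked levels are heterozygous. A level that separates embryos 3 and 15 from the other 3 thus cannot be told apart from what goes with low Y-linked RNA. Embryo 10 alone can be set against wild type at like Y-linked level. Without embryos 3 and 15 the heterozygous group is embryo 10 alone, which is assumed to vary like the other groups. There, 0 probes passed in limma, at a smallest adjusted p of 0.103, and 1051 had an unadjusted p under 0.05.

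Leaving out embryo 10 instead gave 3 passing probes. They were Eif2s3y (difference -4.92, limma adjusted p = 0.00283), Ddx3y (-4.86, adjusted p = 0.0203) and the unnamed GE1572899 (1.95, adjusted p = 0.0203). With a Y-linked covariate in the fit, 0 probes passed in limma, and 1068 of 23381 had an unadjusted p under 0.05. The covariate was the mean of the Y-linked probes, which was 6.93, 7.15 and 5.40 in homozygous embryos 2, 7 and 16. Embryo 16 had no valid spot for Eif2s3y and Ddx3y, so its mean leaves both out.

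**Figure D5:**
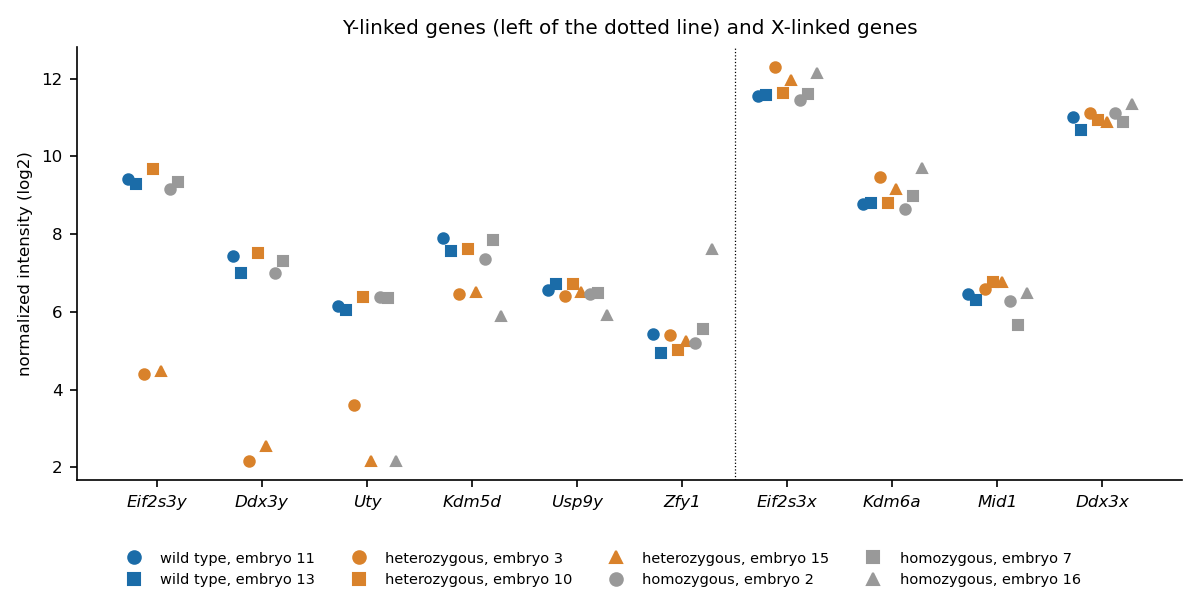
Log2 normalized intensity (y axis) of 6 Y-linked genes, left of the dotted line, and 4 X-linked genes, 1 point per embryo, wild type blue, heterozygous orange and homozygous grey. Heterozygous embryos 3 and 15 sit far below the rest for Eif2s3y and Ddx3y, where homozygous embryo 16 has no valid spot. For Uty these 2 and homozygous embryo 16 are low, and embryo 10 sits with wild type.

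Single embryos stood apart from all others at many probes. Embryo 10 was more than 1 log2 unit below all 4 other embryos at 191 of 22967 probes and above all 4 at 17. Embryo 3 was below at 82 and above at 47, and embryo 15 below at 105 and above at 13. Wild type embryos 11 and 13 were below at 33 and 21 and above at 1 and 10. Every heterozygous embryo thus had more such probes than either wild type embryo. A wild type embryo has only 1 genotype mate among the other 4 and a heterozygous embryo has 2, so the counts are not on equal terms.

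In embryo 10 the genes furthest below the others included macrophage genes and 1 housekeeping gene. Hprt, the purine salvage enzyme often used as a reference, was at 3.48 and not above background, against 9.90 to 10.21 in the other 4. Its homozygous levels ranged from 4.76 to 10.29, and each level here is of 1 probe on 1 array. Fcrls, a microglia and macrophage marker, was at 2.90 against 6.42 to 7.09, Ms4a6d at 2.69 against 5.48 to 6.07, and Plppr1, a neuronal membrane protein, at 2.17 against 5.24 to 5.82. In homozygous embryos these 3 ranged from 3.26 to 4.42, from 3.64 to 5.25 and from 5.04 to 5.43. Furthest above the others was S100g, the calcium-binding protein calbindin-D9k, at 9.04 against 4.80 to 5.95. Phlda2, an imprinted gene of placental growth, was at 9.97 against 7.82 to 8.33, Spink1 at 8.28 against 6.57 to 6.94, and the carbonic anhydrase Car4 at 8.57 against 6.43 to 7.08. Nkx2-9, a ventral neural tube factor, was at 8.23 against 5.50 to 6.80, and Cdcp1 at 7.49 against 5.41 to 5.72.

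Embryos 3 and 15 had isolated genes with differences of several log2 units. In embryo 3 the deacetylase Sirt1 was at 10.22 against 2.17 to 4.62 in the other 4, and Scoc at 9.09 against 4.98 to 5.13. Among the homozygous embryos these 2 genes ranged from 4.06 to 10.24 and from 4.56 to 8.95. Thumpd1 was at 3.54 in embryo 3 against 9.64 to 10.62, the hyaluronidase gene Hyal2 at 3.21 against 9.14 to 9.51, and the mitochondrial mutase gene Mmut at 2.97 against 7.45 to 8.87. Homozygous levels of these 3 ranged from 2.96 to 10.06, from 8.84 to 9.56 and from 7.87 to 8.06. In embryo 15 the spindle gene Haus1 was at 5.16 against 10.32 to 11.10, Adpgk at 4.14 against 8.71 to 9.88, and Usp21 at 3.04 against 7.09 to 8.05. Homozygous levels of Haus1 ranged from 10.27 to 11.06, of Adpgk from 5.47 to 9.11 and of Usp21 from 2.76 to 8.19. The genes furthest above in embryo 15 stood out less, Mrps27 at 11.29 against 9.90 to 10.20 and Tmem106a at 6.47 against 4.82 to 5.32.

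Wild type embryos had such genes too. In embryo 11 the complex I subunit Ndufs5 was at 4.96 against 9.41 to 10.67, Amacr at 2.17 against 5.77 to 6.10, and Lima1 at 3.43 against 6.98 to 7.45. Homozygous levels of Ndufs5 ranged from 3.64 to 9.89, of Amacr from 3.84 to 6.2 and of Lima1 from 4.36 to 7.36. Embryo 13 was high for the neutrophil genes S100a9 (6.84 against 2.94 to 4.34) and S100a8 (7.73 against 4.56 to 6.32) and for Saraf (11.26 against 8.78 to 9.41). Acadm, a fatty acid oxidation enzyme, was low there, at 6.40 against 8.20 to 9.0.

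By chromosome, named probes at an unadjusted p under 0.05 in limma made up 1.82% of 11597 named probes tested. The share was 4.3% on chromosome 14, 3.41% on chromosome 3, where Rbm15 lies, 3.15% on chromosome 15 and 0.245% on the X chromosome. On chromosome 3 they were 4 higher and 16 lower of 587 tested. On chromosome 4, Ccdc28b, Trnau1ap and Trim62, chosen because earlier results showed them low in homozygous embryos, were close to wild type in heterozygous embryos. Ccdc28b was at 8.58 and 8.56 in wild type, 8.44, 8.51 and 8.76 in heterozygous, and 4.78, 4.26 and 3.68 in homozygous embryos, with a 95% interval of -0.67 to 0.67 for heterozygous minus wild type. Trnau1ap was at 10.49 and 10.31 against 10.39, 10.65 and 10.18 (difference 0.01, 95% interval -0.36 to 0.37). Trim62 was at 7.75 and 7.89 against 7.93, 7.61 and 7.84 (difference -0.02, 95% interval -0.75 to 0.71). The homozygous and heterozygous comparisons share the wild type arrays, so these values are set side by side without a test.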

How the data were processed

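Per the file headers, each deposited array file gives a spot intensity, and the authors' expression value is the spot mean less the local background median. The deposited value table holds these intensities divided by 1 factor per array, on a linear scale, as found by setting it against the array files. Scanner software is not given in the sources used here. Control spots and spots marked contaminated, irregular or masked were left out, saturated ones kept. Intensities were quantile normalized over the 8 arrays, floored at their 5th percentile (4.5, or 2.17 on the log2 scale) and log2 transformed. With limma 3.58.1 in R 4.3.3, probes detected above background in every embryo of 1 genotype or more were fitted with 1 mean per genotype over all 8 arrays (lmFit, eBayes, two-sided, Benjamini-Hochberg over 23387 probes, threshold 0.05), so homozygous embryos add to the estimate of spread. A probe not above background on any array of a group has only a bound there, given as "at least N-fold" against the lowest detected signal. This fold compares group means and does not take in the spread over embryos. A fitted difference beside it is no bound. The number of arrays limits the precision. Symbols came from RefSeq accessions (GRCm38.p6, names and gene order only). In lists the brightest probe stands for a gene.

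Members, gene lists and rules were chosen with earlier results of these data known. The rule named Rbm15b, the 12 symbols with the smallest p in each direction and up to 3 unnamed probes per direction (above background in every embryo of 1 of the 2 groups), per list the member with the smallest p in each direction and the brightest, measured Y-linked genes, and for each embryo the 6 symbols furthest from all others on each side. List members at an unadjusted p under 0.05, and further list members given by level alone, were chosen after their values were seen. Simulated data with known differences were used to test the code. There were 26 alternatives: other scalings, floors, filters, priors and weights, the deposited table, a Y-linked covariate, and embryos left out. Some list members are not reported here.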

Additional observations from a re-analysis of the deposited data

How the results depend on the processing

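As reported, 0 probes passed in limma, against 2 under median scaling, 2 in the deposited value table, 1 each under cyclic loess, a trended robust prior and array weights, and 8 without embryos 10 and 16. Leaving out each embryo in turn gave 0 to 3. The 538 probes at an unadjusted p under 0.05 became 990 with the 5 arrays normalized and fitted alone, 972 with only their fit alone, 976 without a filter, 1444 with array weights, 1068 with a Y-linked covariate, 1051 without embryos 3 and 15, 1566 without 10 and 16, and 406 to 1065 without each embryo in turn (1065 without homozygous embryo 16). The cause was not tested. Of 2850 values of 111 named probes, 2806 kept direction and side of the threshold, 11 passed only under the alternative and 33 turned direction, none of them among the 24 genes with the smallest p. Those 24 were chosen by p and do not overlap between the groups. Leaving out embryos could therefore not turn them.

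Without embryos 3 and 15, differences turned to 0.34 (Eif2s3y), 0.30 (Ddx3y), 0.28 (Uty), 0.07 (Usp9y), -0.16 (Zfy1), -0.09 (Slc25a37), -0.17 (Stab1), 0.15 (Tpi1), 0.08 (Ncl), 0.43 (Myh7), -0.03 (Chrng), -0.23 (Col1a1), 0.01 (Cited1) and 0.05 (Kcna2). With the Y-linked covariate they turned to -0.15 (Stab1), 0.00 (Tpi1), 0.01 (Hspa4), 0.03 (Ncl), 0.09 (Myh7), -0.45 (Chrng) and -0.09 (Col1a1). Ncl was 0.02 under median scaling, 0.01 in the deposited table and 0.01 without embryo 15. With 1 embryo left out, the lowest and highest differences were -0.20 and 0.28 for Zfy1 (negative without 3 or 13), -0.47 and 1.47 for Ifit2 (negative without 13), -0.10 and 0.01 for Ncl, -0.03 and 0.27 for Chrng (negative without 15), -0.02 and 0.43 for Col1a1 (negative without 11), -0.01 and 0.20 for Lhx1 and -0.01 and 0.17 for Crybb2. Both of the last were -0.01 without embryo 10 and without 10 and 16. With a wild type embryo left out, or embryos 3 and 15, the lone remaining embryo is assumed to vary like the other groups. Each array has its own array number and export time, so a slide or scan block could not be fitted. No paired analysis was possible because the embryo numbers are unique. Signal over background limits dim genes: 34967 probes were read and 23387 were bright enough to test.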
